A study of Canis lupus familiaris with 5 samples.

Results

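The subject here is a set of genes of the mitochondrial respiratory chain and the ATP synthase, 69 of the 20257 features in each library. They were chosen by symbol alone. The 56 nuclear members are the NDUF, SDH, UQCR, COX4 to COX8 and ATP5 genes. By the start of their symbol 28 were placed in complex I, 3 in complex II, 6 in complex III, 9 in complex IV and 10 in complex V. NDUFA4L2 thus counts in complex I, COX7A2L in complex IV and the inhibitor ATP5IF1 in complex V. The 13 mitochondrial members are the protein genes of the mitochondrial genome, of which 7 belong to complex I, 1 to complex III, 3 to complex IV and 2 to complex V. SDHD, COX6A1, COX6B1, COX6B2, COX7A2 and NDUFA4 were not matched by symbol and were not analysed here, and CYC1 falls outside the rule. Further subunit genes were not matched either, among them NDUFC1, COX6C, COX7C, UQCRH and ATP5PO. The nuclear shares, the ratios and the shares by complex therefore cover only part of the nuclear-encoded subunits.

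Respiration passes electrons from NADH through complex I, or from succinate through complex II, to ubiquinone, then through complex III to cytochrome c and through complex IV to oxygen. Complexes I, III and IV pump protons, and complex V uses the gradient to make ATP. Complexes I, III, IV and V are assembled from proteins of both genomes, whereas complex II is entirely nuclear-encoded. In marrow, blood stem cells are known to rely little on respiration, red cell precursors need mitochondria for heme synthesis before they discard them, and maturing neutrophils lose most of their mitochondrial respiration.

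The libraries came from femoral bone marrow of 3 healthy dogs, all labelled Wt, with red cells lysed before loading. Unsorted marrow of each dog gave 3 whole-marrow libraries, and viable CD34-positive cells sorted from marrows 2 and 3 gave the 2 CD34-sorted libraries, so sorted library 1 shares its dog with whole marrow 2 and sorted library 2 with whole marrow 3. CD34 is a surface glycoprotein of stem and progenitor cells. Whole marrow was used only where its viability was high enough and its neutrophil share low enough, per the labels' protocols. The age, sex and breed of the dogs are not given in the sources used here. Each library holds counts of unique molecular identifiers (UMIs) from the 3' end of transcripts, so a level is compared here between cells for the same gene and not between genes.

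The filter left 26134 of 27953 barcodes: those that showed 200 or more genes and whose UMIs were mitochondrial to no more than 20%. Total UMIs per library ranged from 46114431 to 70169186, and the median UMIs per kept barcode were 2710 to 4252 in whole marrow against 11521 and 13604 in sorted cells. Any 2 libraries shared between 3 and 12 kept barcode sequences. Cells were grouped by 10 gates on raw UMIs of marker genes, and each group is called by its gate: SULT1B1+TFPI (at least 4 UMIs together, stem-like), GATA1 (at least 2), AHSP (at least 0.2% of UMIs, red cell precursors), MPO (at least 0.1%) and ELANE (at least 1%, both neutrophil progenitors), CAMP (at least 1%, intermediate neutrophils), CXCL8 (at least 2), VCAN (at least 2, monocytes), VPREB1 (at least 5, early B cells) and MS4A1 (at least 2, B cells). The gates overlap. In whole marrow 91.2% of GATA1-gate cells were also in the AHSP gate, 75.9% of MPO-gate cells were also in the ELANE gate, and 52.8% of SULT1B1+TFPI-gate cells (44.4% in sorted libraries) were also in the VPREB1 gate. Shares of UMIs below use the gates as they are, whereas levels of single genes and all tests place each cell in 1 gate. Summed markers of 13 cell type lists, several of which hold the gate's own genes, were checked against these labels. Stem markers summed to 1693 and 1556 CPM (UMIs per 1000000 of the sum) in the stem-like gate of the sorted libraries, and to 1057 and 871 in their VPREB1 gate. Early B cell markers were present in every gate, from 1604 to 17418 CPM, and do not separate the gates. Late neutrophil markers were 93597, 91511 and 98752 CPM in the CAMP gate and 104450, 85928 and 125760 in the CXCL8 gate, so they overlap, while intermediate neutrophil markers were 85519, 85512 and 92193 against 26186, 23723 and 33506.

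Whole marrow 1 stood apart from the other marrows for a subset of members before any comparison of cells. Among the 64 members that averaged at least 10 CPM over the marrows, 10 were at least 2-fold below both other marrows in whole marrow 1, and none was in whole marrow 2 or 3. Over all 5411 features at that level the share was 5.77% in whole marrow 1, 0.203% in whole marrow 2 and 0.24% in whole marrow 3. The 10 were NDUFA13, COX8A, UQCRFS1, NDUFB6, ATP5F1E, COX7A2L, NDUFA10 and SDHA of the nuclear set and MT-ATP8 and ND4L of the mitochondrial set. COX8A, a small structural subunit of complex IV, had 38.8 CPM in whole marrow 1, 376 in whole marrow 2 and 301 in whole marrow 3. UQCRFS1, the Rieske iron-sulfur protein of complex III, had 8.61, 100 and 49.8 CPM. COX8A, UQCRFS1, NDUFA13, NDUFB6 and ATP5F1E were 2-fold or more below both other marrows in each of the 9 gates measured in all 3 marrows, so the gap was present in each cell group. Between the sorted libraries only ATP5F1E, the epsilon subunit of the ATP synthase, of 64 members was 2-fold apart, at 240 and 80.1 CPM, where 2.1% of 5715 features were. What set these libraries apart was not tested.

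**Figure D1:**
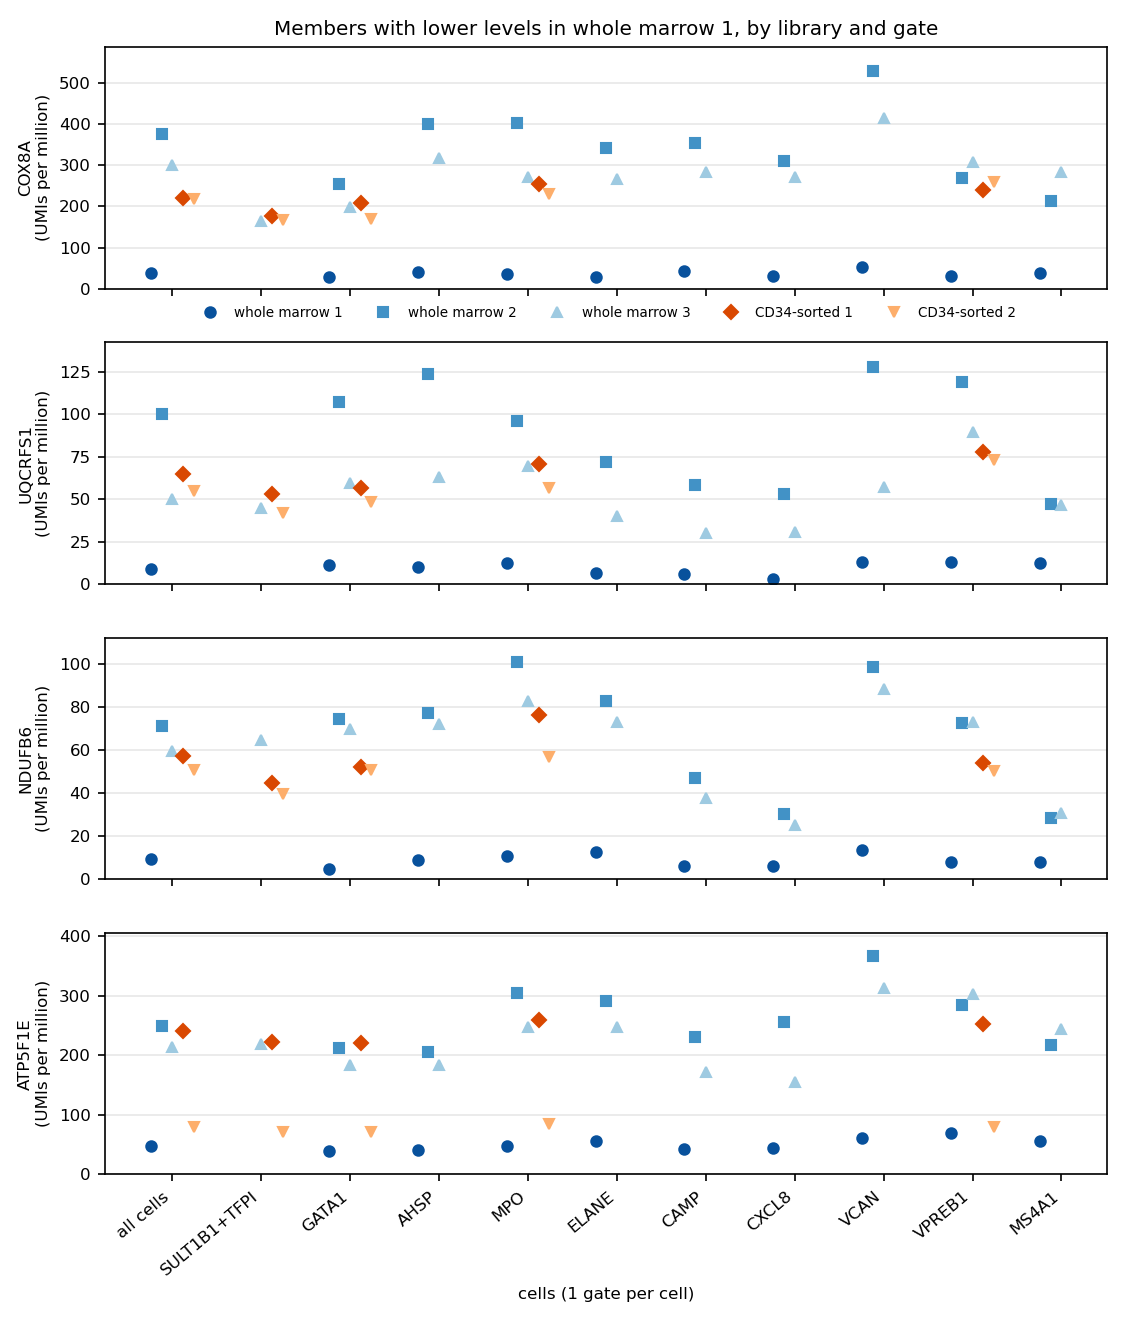
Levels of COX8A, UQCRFS1, NDUFB6 and ATP5F1E (CPM, y axes from 0) in each library over all cells and by gate with 1 gate per cell, 1 point per library. Whole marrow 1 is the lowest marrow in every gate it enters, and for ATP5F1E sorted library 2 lies below sorted library 1 throughout.

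Over all kept cells the mitochondrial members took more of the UMIs in sorted cells than in whole marrow. Their share was 4.63%, 4.65% and 4.98% for the 3 unsorted marrows, against 6.29% and 8.10% after the sort. Both sorted libraries lay above all 3 marrows, with means of 7.20% ± 1.28 (SD, n = 2) and 4.75% ± 0.198 (SD, n = 3). The nuclear members took 1.25%, 1.37% and 1.19% in whole marrow against 1.17% and 1.21% in sorted cells, and here the groups overlapped. The ratio of mitochondrial to nuclear UMIs was 3.70, 3.39 and 4.18 in whole marrow and 5.38 and 6.71 in sorted cells, and these did not overlap. Without the 8 nuclear members that set whole marrow 1 apart, the nuclear share was 1.24%, 1.28% and 1.12% in whole marrow and 1.10% and 1.15% in sorted cells. The direction of the nuclear difference depends on whether cells or UMIs are weighted equally: the median over cells was 0.909%, 0.887% and 0.847% in whole marrow and 1.11% and 1.15% in sorted cells. Deep cells dominate a sum, and in whole marrow the deepest were in the AHSP and GATA1 gates, with medians of 37952 to 56453 UMIs.

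Several of the more counted members of each complex are given here as CPM over all cells, while ATP5IF1, COX4I1 and NDUFB2 are described with the tests (mean ± SD, n = 3 whole marrows, then sorted libraries 1 and 2). In complex I, NDUFS5, an accessory subunit, had 493 ± 13.6 CPM against 449 and 432, and NDUFB4 had 328 ± 23.5 against 264 and 274. Of the mitochondrial genes of complex I, MT-ND4 had 4124 ± 163 CPM against 4968 and 6584, and MT-ND5 218 ± 12.6 against 260 and 258. In complex III, UQCRQ had 424 ± 38.7 CPM against 349 and 321 and UQCRB 407 ± 7.80 against 371 and 355, while MT-CYB had 2562 ± 273 against 3573 and 5635. In complex IV, COX5B had 544 ± 31.6 CPM against 501 and 523 and COX5A 475 ± 66.7 against 466 and 518, while MT-CO3 had 12159 ± 508 against 18228 and 24130 and MT-CO2 9316 ± 305 against 12412 and 14743. In complex V, ATP5PF had 443 ± 38.3 CPM against 572 and 600 and ATP5F1A, the alpha subunit of the catalytic head, 380 ± 21.3 against 463 and 477, while MT-ATP6 had 10321 ± 494 against 13852 and 18913. On this per-UMI scale ATP5PF and ATP5F1A were above, and UQCRQ, UQCRB, NDUFS5 and NDUFB4 below, whole marrow in both sorted libraries. MT-CO1 was the 1 abundant mitochondrial member whose groups overlapped, at 4185 and 5664 CPM in sorted cells and 3943 to 6619 in whole marrow.

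With the gates as defined, mitochondrial UMIs were most abundant in the stem-like and VPREB1 gates and least in the CAMP gate. In whole marrow the share was 7.58%, 8.22% and 8.21% in the SULT1B1+TFPI gate, which held 62, 31 and 49 cells. The VPREB1 gate had 6.72%, 7.17% and 7.53%, and the MS4A1 gate 7.90%, 5.60% and 7.60%. The MS4A1 gate overlapped both of the others in range and cannot be ordered against them. The SULT1B1+TFPI gate lay above the VPREB1 gate in each marrow without overlap, although its lowest value, 7.58%, was close to 7.53%. Those gates also share cells. The VCAN gate followed with 5.46%, 6.09% and 6.51%, then the MPO gate with 5.71%, 5.26% and 5.67%, the GATA1 gate with 5.30%, 4.96% and 5.80%, the AHSP gate with 5.17%, 4.83% and 5.65% and the ELANE gate with 5.22%, 4.46% and 5.52%. Neighbouring gates in that run overlapped. The CXCL8 gate, at 3.21%, 3.35% and 3.08%, and the CAMP gate, at 2.26%, 1.89% and 2.29%, lay below every other gate in every marrow, and CAMP lay below CXCL8 without overlap. The order depends on how shared cells are placed. With 1 gate per cell the MPO gate had 7.19%, 6.77% and 6.87% and the GATA1 gate 6.88%, 6.15% and 7.51%, which overlapped the VPREB1 gate at 6.64%, 7.25% and 7.74%. The CXCL8 and CAMP gates then overlapped each other, at 2.11%, 2.03% and 1.74% in the CXCL8 gate and 2.17%, 1.86% and 2.19% in the CAMP gate.

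The nuclear members gave another order. Their share was highest in the AHSP gate (1.64%, 1.69% and 1.52%), the GATA1 gate (1.62%, 1.67% and 1.50%) and the VCAN gate (1.53%, 1.62% and 1.49%), which overlapped one another and lay above all other gates in whole marrow. The most counted nuclear member in the AHSP gate was ATP5IF1, an inhibitor of the ATP synthase. With 1 gate per cell it held 25372, 36041 and 23781 of 9851396, 13273614 and 9494498 UMIs in the AHSP gate. All nuclear members together made up 1.60%, 1.65% and 1.47% of those UMIs, so ATP5IF1 was a minor part of the share. In the VCAN gate ATP5IF1 held 1810, 1600 and 1467 of 4223028, 3444394 and 3429284 UMIs. The order of the gates without ATP5IF1 was not calculated. The place of the GATA1 gate depends on the AHSP cells it shares: with 1 gate per cell its nuclear share was 1.19%, 1.30% and 1.18%, below the MPO gate in every marrow (1.39%, 1.51% and 1.32%). The VCAN gate shares cells too: in whole marrow 15.3% of its cells were also in the GATA1 gate, 14.7% in the AHSP gate and 26.2% in the CXCL8 gate. With 1 gate per cell its nuclear share was 1.40%, 1.56% and 1.45%, which overlapped the MPO gate. With the gates as defined the nuclear share was lowest in the CAMP gate, at 0.985%, 0.944% and 0.873%, which overlapped the CXCL8 gate at 1.17%, 1.08% and 0.957%. The stem-like gate sat in between at 1.15%, 1.16% and 1.09%. The 2 sets therefore ranked the gates differently, and their ratio spanned from 6.61, 7.05 and 7.54 in the SULT1B1+TFPI gate to 3.15, 2.86 and 3.73 in the AHSP gate and 2.29, 2.00 and 2.63 in the CAMP gate.

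In the sorted libraries the stem-like gate had 6.29% and 8.44% mitochondrial UMIs, the GATA1 gate 5.23% and 7.12%, the MPO gate 6.26% and 7.30% and the VPREB1 gate 6.79% and 8.75%. Sorted library 2 was the higher in all 4 gates. Nuclear members made up 1.06% and 1.09% in the stem-like gate, 1.12% and 1.07% in the GATA1 gate, 1.38% and 1.31% in the MPO gate and 1.18% and 1.31% in the VPREB1 gate. The MPO gate was above the stem-like gate in both libraries.

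**Figure D2:**
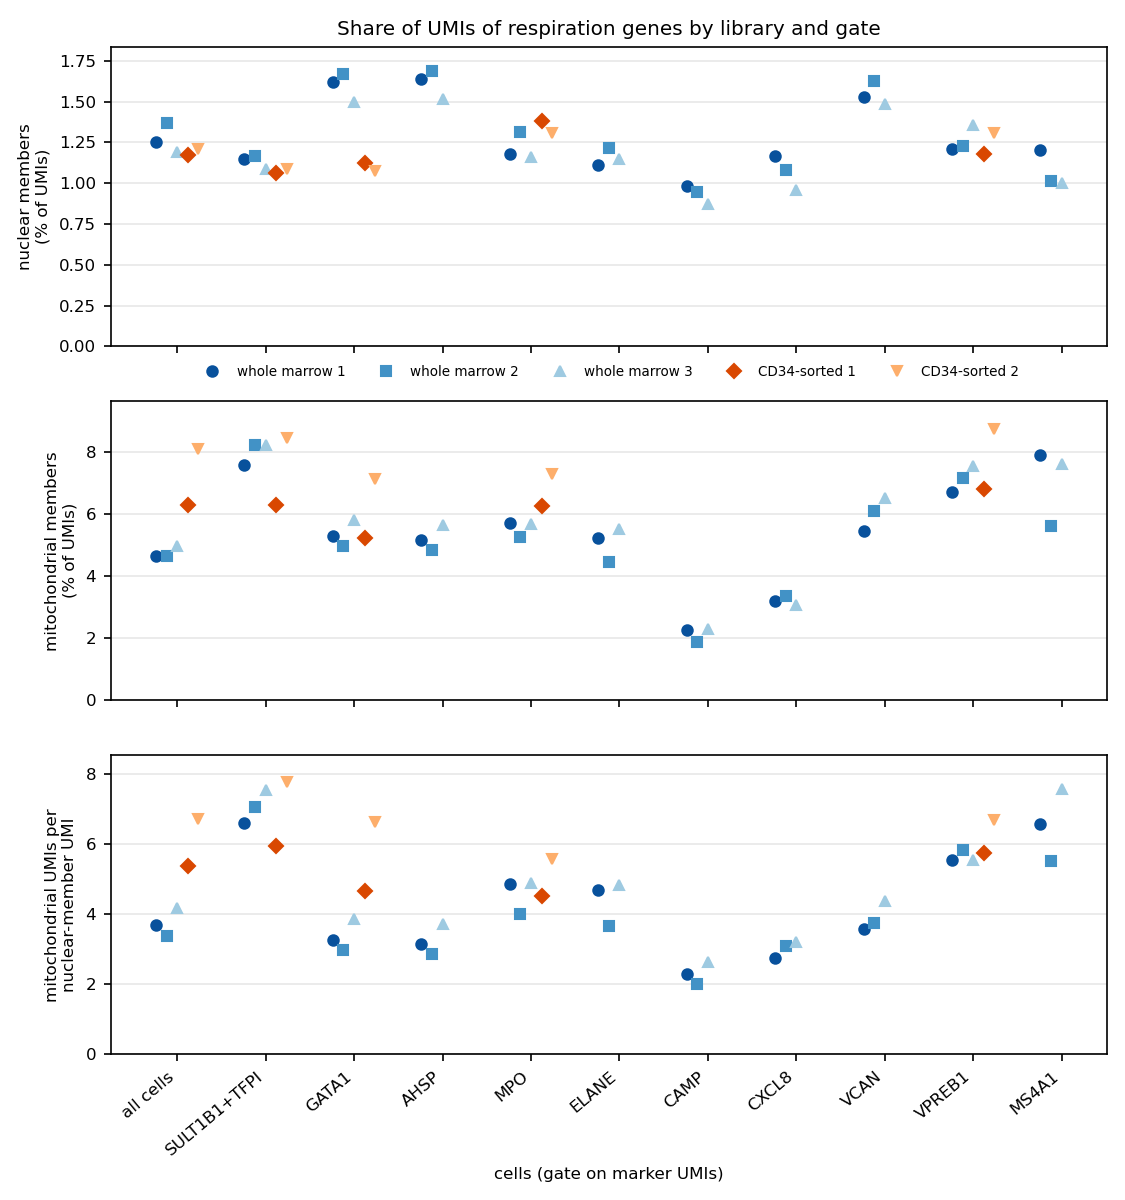
Share of UMIs of the nuclear members (top, %), of the mitochondrial members (middle, %) and their ratio (bottom) in each library for all cells and for the 10 gates as defined, 1 point per library with at least 20 cells, axes from 0. The CAMP and CXCL8 gates lie lowest for mitochondrial UMIs, and the GATA1, AHSP and VCAN gates of whole marrow lie highest for nuclear members.

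Depth moved with these shares. Median UMIs per cell were 1047 to 2186 in the CXCL8 gate, 3694 to 6334 in the CAMP gate and 37952 to 55920 in the AHSP gate. When the CAMP gate was split at its median UMI count, the mitochondrial share was 0.879%, 0.892% and 1.11% in the shallower cells and 2.74%, 2.29% and 2.75% in the deeper cells. In the CXCL8 gate it was 0.588%, 0.650% and 0.616% in the shallower cells against 3.66%, 3.82% and 3.66% in the deeper cells. The CXCL8 gate asks for a fixed number of UMIs and so takes in deep cells with little CXCL8. Its cells with at least 0.2% CXCL8 had 0.767%, 1.14% and 1.02% mitochondrial UMIs, and its other cells 4.22%, 4.25% and 4.12%, so the order of the CAMP and CXCL8 gates turns with this choice, which was made after the data were seen. The part of depth, cell size and free RNA in the shares was not tested. Fewer mitochondria per cell and fewer transcripts per mitochondrion cannot be told apart from UMI counts.

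The make-up of each set also differed between gates. Complex I made up 50.9% ± 1.95 of nuclear-member UMIs in the CAMP gate and 51.2% ± 2.93 in the CXCL8 gate, against 34.8% ± 1.18 in the AHSP gate (SD, n = 3 whole marrows in each). Complex V went the other way, with 19.0% ± 0.911 in the CAMP gate, 18.6% ± 1.90 in the CXCL8 gate and 35.9% ± 0.917 in the AHSP gate. The AHSP value leans on the inhibitor ATP5IF1, with 25372, 36041 and 23781 UMIs there in whole marrows 1 to 3. No other complex V member passed 7819 UMIs in that gate in any marrow. ATP5IF1 also counts in the total from which the complex I share of the AHSP gate is taken. Neither share was calculated without it. In the other gates of these lineages complex I made up 41.9% ± 1.59 (ELANE), 39.1% ± 0.882 (MPO) and 39.8% ± 1.71 (GATA1). Complex II, the succinate dehydrogenase, was a small part throughout, from 0.802% ± 0.0607 in the ELANE gate to 2.27% ± 0.195 in the VCAN gate. Among mitochondrial UMIs, the 3 complex IV genes made up 67.1% ± 2.33 in the CAMP gate and 51.2% ± 1.30 in the GATA1 gate. MT-CO1, the catalytic subunit of complex IV, made up 6.14% ± 1.11 of mitochondrial UMIs in the GATA1 gate and 17.6% ± 4.65 in the CAMP gate. It also varied between libraries, with 3943, 5940 and 6619 CPM over all cells of whole marrows 1 to 3. These shares are descriptions and carry no test.

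**Figure D3:**
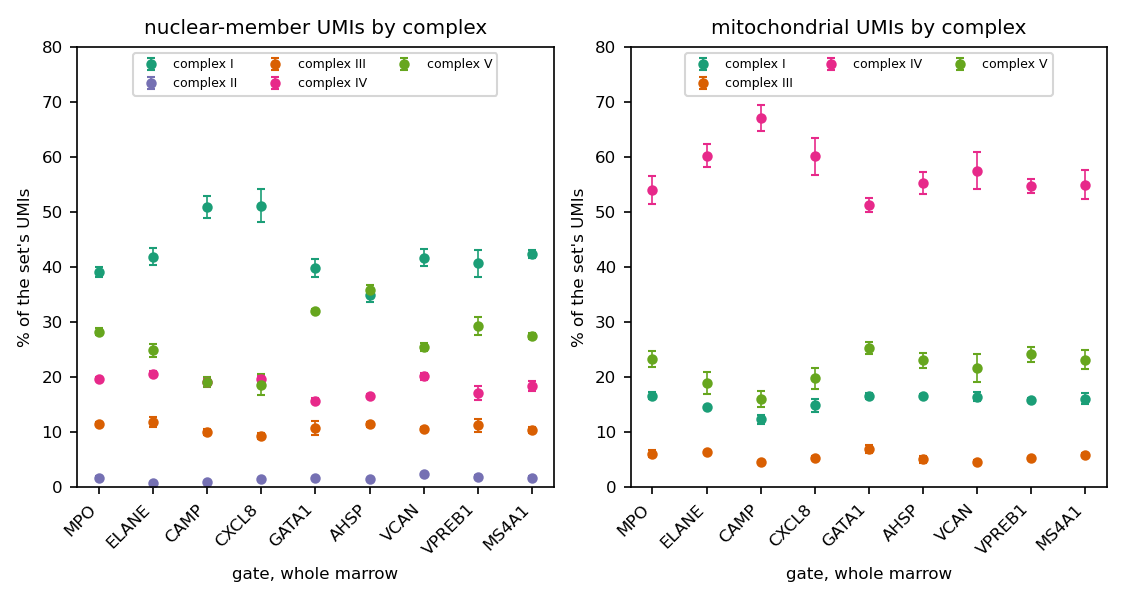
Share of each complex (%) among nuclear-member UMIs (left) and among mitochondrial UMIs (right) in whole-marrow gates with 1 gate per cell, mean and SD over 3 libraries. Complex I leads nuclear members most in the CAMP and CXCL8 gates. Complex V, with the inhibitor ATP5IF1 counted in it, reaches complex I in the AHSP gate. Complex IV leads mitochondrial UMIs in every gate shown.

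Single members were tested on UMI sums per library and gate with edgeR's quasi-likelihood test and Benjamini-Hochberg adjustment over all genes tested, at 0.05. Fold changes are on the TMM scale, which centres most genes, while levels in CPM are relative to all UMIs. These scales part where a few genes fill a library: the 10 most abundant nuclear-encoded genes held 37.1% to 40.9% of UMIs in the CAMP gate. Each comparison therefore also gives the members called in the same direction under 3 scalings (TMM, the RLE size factors of DESeq2 and total UMIs), a count added after the data were seen. Over all cells the p-values rest on the spread between libraries within each group, with 3 residual degrees of freedom. Between gates they rest on the spread left after gate and library are fitted, with 19 residual degrees of freedom. That spread is shared over all gates of both sorts. A comparison within the 2 sorted libraries thus also draws on whole-marrow gates. Comparisons that share a gate are not independent: CAMP enters 2 of them and SULT1B1+TFPI enters 3.

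From the ELANE gate to the CAMP gate in whole marrow, the step from early to intermediate neutrophil precursors, all 13 mitochondrial members fell, under each of the 3 scalings. Lower calls made up 20.6% of the 11216 genes tested with TMM and 20.5% under all 3 scalings. MT-ND1, a membrane core subunit of complex I, had 1601, 1242 and 1901 CPM in the ELANE gate and 412, 307 and 374 in the CAMP gate. The groups did not overlap, and the log2 fold change was -1.85 ± 0.16 (SE) with an adjusted p of 2.48e-13 by edgeR. MT-CYB, the cytochrome b of complex III, changed by -1.68 ± 0.14, MT-ND2 by -1.52 ± 0.17, MT-ATP6, the proton channel subunit of complex V, by -1.47 ± 0.14, MT-ND4 by -1.43 ± 0.14 and MT-CO3 by -1.40 ± 0.13. ND4L, MT-ND3, MT-ND6, MT-CO2 and MT-ND5 lay between -1.16 and -1.03. The smallest falls were those of MT-ATP8, at -0.50 ± 0.15, and MT-CO1, at -0.35 ± 0.14 with an adjusted p of 0.03 by edgeR. MT-CO1 had 4034, 5342 and 7324 CPM in the ELANE gate and 2659, 3690 and 4543 in the CAMP gate; the ranges overlap, whole marrow 1 is lowest in both, and the level was lower in the CAMP gate of each marrow.

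The nuclear members moved in both directions in the same step. Of 52 tested, 9 rose and 14 fell, where 26.5% of all genes rose and 20.6% fell. Under all 3 scalings 5 rose, where 19.9% of all genes did, and 14 fell. All 5 that rose belong to complex I, among them NDUFA2, NDUFA6, NDUFB11 and NDUFS5. NDUFB11, an accessory subunit of the membrane arm, had 204, 198 and 186 CPM in the ELANE gate and 307, 272 and 253 in the CAMP gate, without overlap, and rose by 0.76 ± 0.13. NDUFS5 rose by 0.71 ± 0.13. COX8A was called with TMM (0.53 ± 0.14) but not on total UMIs (0.24, adjusted p = 0.173 by edgeR). Of the 27 complex I members tested 7 rose and 4 fell with TMM, and of the 9 complex V members 6 fell and none rose. Without the library as a block the count of lower nuclear members was 7. On total UMIs 5 nuclear members rose and 25 fell, where 19.9% of all genes rose and 26.5% fell: the median of all genes was 0.12 with TMM and -0.07 on total UMIs, and the share of called genes that were higher 56.3% and 42.9%. ATP5MC1, which encodes the c subunit of the rotor ring, had 413, 448 and 388 CPM in the ELANE gate and 174, 171 and 149 in the CAMP gate, and fell by 1.08 ± 0.15. ATP5IF1, the inhibitor that stops the ATP synthase from running backwards, fell by 0.79 ± 0.12.

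COX7A1, the subunit 7A isoform best known from heart and muscle, had the largest fall of any member in that step. It had 180, 191 and 315 CPM in the ELANE gate and 38.2, 33.9 and 55.1 in the CAMP gate, a log2 fold change of -2.14 ± 0.19 with an adjusted p of 2.56e-11 by edgeR. The gates did not overlap. Its level was high in the MPO and ELANE gates of each library that had them (126 to 315 CPM) and intermediate in the VCAN gate (65.4, 85.4 and 112 CPM). It was low in the stem-like, GATA1 and VPREB1 gates (10.5 to 33.2 CPM) and at most 3.58 CPM in the AHSP and MS4A1 gates.

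From the CAMP gate to the CXCL8 gate, 40 of 52 nuclear members fell and none rose with TMM, where 22.5% of all genes fell and 19% rose. The same test without adjustment gave 43 lower and 0 higher, where 5359 of the 11216 genes tested had an unadjusted p under 0.05 in either direction. DESeq2 gave 34 members lower and 1 higher. The scaling matters here: the median of all genes moved from -0.03 with TMM to 0.22 with RLE and 0.45 with total UMIs, and the share of called genes that were higher from 45.8% to 64.6% and 79.3%. Under total UMIs 15 nuclear members fell and 5 rose, where 33.1% of all genes rose. All 3 scalings agreed on 15 lower members, where 8.67% of all genes were lower, and on none higher. COX5A, a complex IV subunit, had 512, 409 and 389 CPM in the CAMP gate and 288, 297 and 182 in the CXCL8 gate, without overlap, and changed by -1.37 ± 0.15 (adjusted p = 8.34e-11 by edgeR). NDUFB4 changed by -1.33 ± 0.14, NDUFS8, an iron-sulfur core subunit of complex I, by -1.29 ± 0.15, NDUFA9 by -1.21 ± 0.18 and NDUFB11 by -1.19 ± 0.13. This step shares the CAMP gate with the one before, so the values of NDUFB11 are best read side by side: 204, 198 and 186 CPM in the ELANE gate, 307, 272 and 253 in the CAMP gate and 199, 168 and 169 in the CXCL8 gate.

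Of the mitochondrial members 11 fell in this step with TMM, 5 with RLE and 3 with total UMIs. The 3 called under each scaling were MT-CO1, MT-CO2 and MT-ATP8, and none was called higher under all of them. The call of MT-ATP8 was weak on total UMIs (adjusted p = 0.0488 by edgeR). In whole marrow 1 it had 95 of 11770662 UMIs in the CAMP gate and 14 of 1665172 in the CXCL8 gate. Its level per UMI was thus not lower there, while it was lower in whole marrows 2 and 3. MT-CO2 had 6112, 5030 and 5636 CPM in the CAMP gate and 4594, 4585 and 3701 in the CXCL8 gate, without overlap, and changed by -0.96 ± 0.14. MT-CYB (-0.43 with TMM, 0.16 with total UMIs), MT-ND4 (-0.39 and 0.20), MT-ATP6 (-0.35 and 0.23) and MT-CO3 (-0.58 and 0.01) changed sign with the scaling, so no direction is given for them. Monocyte-macrophage markers summed to 13327, 17080 and 11724 CPM in the CXCL8 gate and 22379, 29047 and 25460 in the CAMP gate, against 36017 to 45475 in the VCAN gate; their part in the result was not tested.

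In the red cell step the comparison is narrow, since few GATA1-gate cells of whole marrow lacked AHSP: 21, 38 and 21 cells, against 300, 350 and 194 in the AHSP gate. Late erythroid markers summed in the AHSP gate to 30534, 25661 and 26184 CPM against 1039, 799 and 1013 in the GATA1 gate. The GATA1 gate of marrows 2 and 3 also held eosinophil, basophil or mast cell markers, 698 and 908 CPM against 35.5 in marrow 1 and at most 4.67 in the AHSP gate; their part in the result was not tested. From GATA1 to AHSP, 46 of 52 nuclear members rose and 1 fell with TMM, where 26.5% of all genes rose and 16.8% fell. The median of all genes was 0.17 with TMM, -0.10 with RLE and -0.53 with total UMIs, and the share of called genes that were higher was 61.2%, 40.3% and 16.0%. On total UMIs 14 nuclear members rose and 3 fell, where 37.1% of all genes fell. Those 14 were called under all 3 scalings, where 7.08% of all genes rose, and COX7A1 was the 1 lower member, where 16.8% fell. With the gates left overlapping no member of either set was higher, and most GATA1-gate cells are then also counted in the AHSP gate.

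ATP5IF1 rose the most. It had 778, 781 and 731 CPM in the GATA1 gate and 2576, 2715 and 2505 in the AHSP gate, more than 3-fold apart in each marrow and far outside the spread. Its log2 fold change was 2.58 ± 0.13 (adjusted p = 5.33e-22 by edgeR) with TMM and 1.77 on total UMIs. No other gate exceeded 781 CPM for it in any library, and the CXCL8 gate was lowest within each marrow, at 248, 306 and 187. ATP5IF1 is known from other work to be needed for heme synthesis in red cell precursors. NDUFS3, a core subunit of the complex I arm that faces the matrix, had 137, 123 and 95.2 CPM in the GATA1 gate and 396, 333 and 267 in the AHSP gate, without overlap, and changed by 2.29 ± 0.14. UQCR10 of complex III rose by 1.74 ± 0.16, NDUFS8 by 1.62 ± 0.16 and COX4I1, the ubiquitous subunit 4 isoform, by 1.61 ± 0.15. NDUFB2, NDUFB11, NDUFA9, NDUFS7, NDUFV1, UQCRC1, UQCRQ, COX8A and ATP5F1D were the other 9 of the 14. COX7A1 fell by 2.66 ± 0.37, from 11.3, 25.0 and 25.4 CPM to 1.52, 1.13 and 3.58.

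The mitochondrial members gave no direction that held across scalings. With TMM 5 of 13 rose, where the median over them was 0.24, while on total UMIs none rose and 10 fell, and none kept a call in 1 direction under all 3 scalings. Leaving out whole marrow 1, 2 or 3 gave 1, 2 and 1 higher with TMM. MT-ND1 (0.45 with TMM, -0.36 on total UMIs), MT-ND6 (0.61 and -0.18), ND4L (0.45 and -0.34) and MT-CO3 (0.35 and -0.46) changed sign. MT-CO1 was positive under both, at 1.07 ± 0.14 and 0.26, and was called with TMM but not on total UMIs. The 2 sets share their libraries and cells, so the scale that moved all genes moved both, and no test of the difference between the sets was made.

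**Figure D4:**
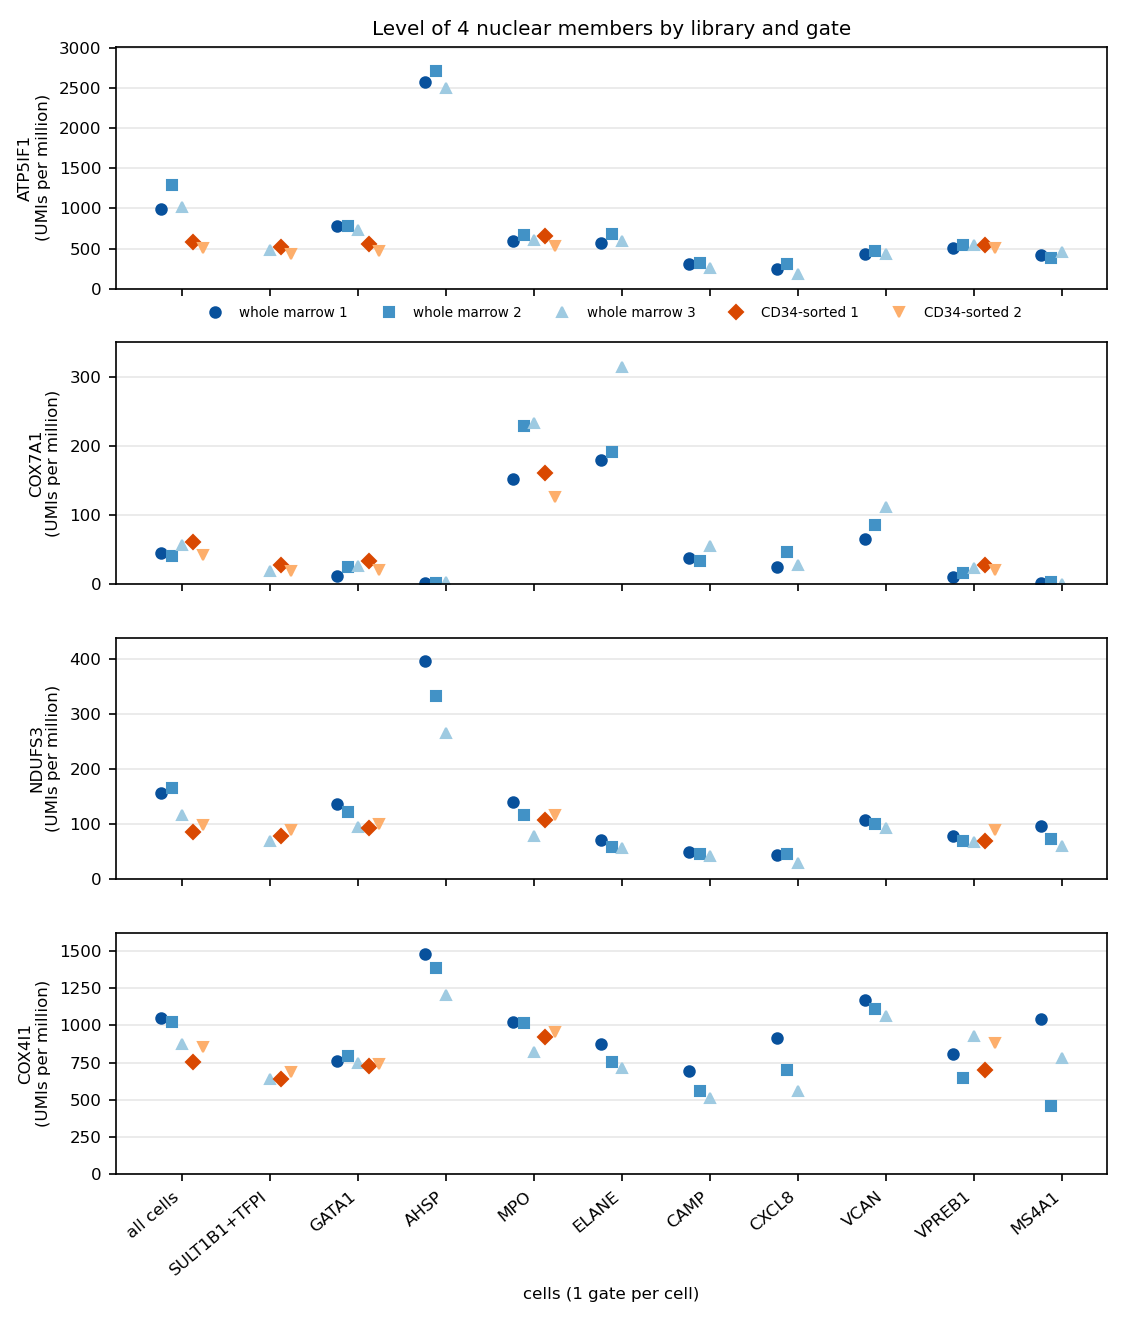
Levels of ATP5IF1, COX7A1, NDUFS3 and COX4I1 (CPM, y axes from 0) by library and gate with 1 gate per cell, 1 point per library. ATP5IF1, NDUFS3 and COX4I1 are highest in the AHSP gate, and COX7A1 is highest in the MPO and ELANE gates and near 0 in the AHSP and MS4A1 gates.

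In the B lineage the MS4A1 gate was compared with the VPREB1 gate in whole marrow (45 to 109 against 54 to 194 cells). With TMM 5 nuclear members rose and 4 fell, where 9.72% of all genes rose and 12% fell, and 7 of 13 mitochondrial members rose. Under all 3 scalings ATP5MC1, NDUFB2, COX6A2, MT-CO1 and MT-ND2 rose, where 5.65% of all genes did, and ATP5PF and COX7A1 fell, where 10% did. On total UMIs 3 nuclear members rose and 25 fell, where 5.66% of all genes rose and 24.8% fell. The median of all genes was -0.06 with TMM, 0.01 with RLE and -0.49 on total UMIs, and the share of higher calls was 44.7%, 54.6% and 18.6%. NDUFB2, a small membrane-arm subunit of complex I, had 380, 272 and 382 CPM in the VPREB1 gate and 701, 390 and 455 in the MS4A1 gate, without overlap, a change of 1.00 ± 0.15. ATP5PF, a peripheral stalk subunit of complex V, had 758, 862 and 778 CPM in the VPREB1 gate against 543, 239 and 388, without overlap, and changed by -0.59 ± 0.14. MT-CO1 had 4101, 5326 and 8794 CPM against 6902, 6932 and 9887; the gates overlap, but each marrow rose, by 0.90 ± 0.14. COX6A2, the muscle isoform of subunit 6A, was counted at 0 UMIs in the VPREB1 gate of every library and at 3, 1 and 8 UMIs in the MS4A1 gate, too few for a fold change. ATP5MC1 had 272, 293 and 313 CPM in the VPREB1 gate and 670, 264 and 411 in the MS4A1 gate, so the gates overlap and marrow 2 went the other way. With all gate minimums doubled no member of either set was higher. With 1 gate per cell, as in this test, the summed share of nuclear members in the MS4A1 gate was 0.711% in marrow 2 against 1.19% and 1.00% in marrows 1 and 3; with the gate as defined it was 1.01%, 1.20% and 1.00% in the same order. Plasma cell markers summed in the MS4A1 gate to 2991, 5422 and 3489 CPM, highest in marrow 2, and to at most 170 CPM in the VPREB1 gate of whole marrow; their part in the result was not tested.

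Within CD34-sorted cells, 3 gates were set against the stem-like gate. None of the 52 nuclear members differed between the GATA1 gate and the stem-like gate by edgeR, with or without adjustment, or by DESeq2, where 4.2% of all genes rose and 7.6% fell by edgeR. Without adjustment 2343 of the 11216 genes tested had a p under 0.05 by edgeR in either direction. The log2 fold changes of the nuclear members had a median of 0.07. Of the mitochondrial members 2 fell, MT-ND3 by 0.66 ± 0.17, from 1940 and 1592 CPM to 1318 and 1031, and MT-ND6 by 0.50 ± 0.17. Only MT-ND3 fell under all 3 scalings, where 6.45% of all genes fell and 4.18% rose. On total UMIs alone these shares were 6.52% and 4.55%. No mitochondrial member was called lower when either sorted library was left out or without the library as a block. Eosinophil, basophil or mast cell markers summed to 324 and 354 CPM in this GATA1 gate and to 49.8 and 74.7 in the stem-like gate, and late erythroid markers to 89.3 and 161 CPM; their part in the result was not tested. The absence of nuclear calls here and the rise from GATA1 to AHSP in whole marrow come from different libraries, and their difference was not tested.

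From the stem-like gate to the MPO gate, 27 of 52 nuclear members rose and none fell, where 9.73% of all genes rose and 13.4% fell. Without adjustment 39 rose and none fell, where 3784 of the 11216 genes tested had an unadjusted p under 0.05 by edgeR in either direction. DESeq2 called 34 members higher and none lower. Of the 27, 19 rose under all 3 scalings, where 7.75% of all genes did (7.78% on total UMIs alone, where 14.4% fell). The TMM count was 5 without the library as a block. By complex, 10 of 27 tested members rose in complex I, 2 of 3 in complex II, 4 of 6 in complex III, 5 of 7 in complex IV and 6 of 9 in complex V. COX7A1 rose most, from 28.2 and 18.6 CPM to 162 and 126, a change of 2.69 ± 0.23 (adjusted p = 2.01e-10 by edgeR). COX5A rose by 0.88 ± 0.17, ATP5MC1 by 0.87 ± 0.18, NDUFB2 by 0.85 ± 0.17 and UQCRQ, the ubiquinone-binding small subunit of complex III, by 0.83 ± 0.18. SDHB, the iron-sulfur subunit of complex II, had 85.0 and 93.3 CPM in the stem-like gate and 130 and 128 in the MPO gate, without overlap, and rose by 0.59 ± 0.18. SDHC, a membrane anchor, rose by 0.44 ± 0.16 with TMM but was not called on total UMIs (0.39, adjusted p = 0.109 by edgeR). Of the mitochondrial members only MT-CO1 rose, by 0.60 ± 0.17, from 3219 and 4516 to 5234 and 5903 CPM. Monocyte-macrophage markers summed to 218 and 1134 CPM in the MPO gate and to 26.7 and 39.1 in the stem-like gate; their part in the result was not tested. The count of nuclear members rested on both sorted libraries: it was 4 without sorted library 1 and 7 without sorted library 2. No mitochondrial member was called higher without either sorted library or without the block.

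From the stem-like gate to the VPREB1 gate, 5 nuclear members rose and 3 fell, where 13.5% of all genes rose and 21.9% fell. The 5 rose under all 3 scalings, where 13.5% of all genes did: COX7A2L, which joins complexes III and IV into larger assemblies, by 0.91 ± 0.22, NDUFB4 by 0.57 ± 0.16, NDUFB2 by 0.56 ± 0.17, NDUFS1 by 0.55 ± 0.20 and UQCRFS1 by 0.43 ± 0.16. COX7A2L had 8.03 and 11.8 CPM in the stem-like gate and 16.6 and 28.2 in the VPREB1 gate. NDUFA13 and NDUFB10 fell with TMM and neither did on total UMIs, where 18 nuclear members and 23.5% of all genes rose and 15.2% of all genes fell, and MT-CYB fell with TMM but not on total UMIs. The median of all genes was -0.06 with TMM and 0.17 on total UMIs, and the share of called genes that were higher 38.0% and 60.7%. The count of higher nuclear members was 0 without sorted library 2, 3 without sorted library 1, 14 without whole marrow 1, 12 without whole marrow 3 and 0 without the library as a block. The count of lower mitochondrial members was 0 without either sorted library, without whole marrow 3 and without the block.

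**Figure D5:**
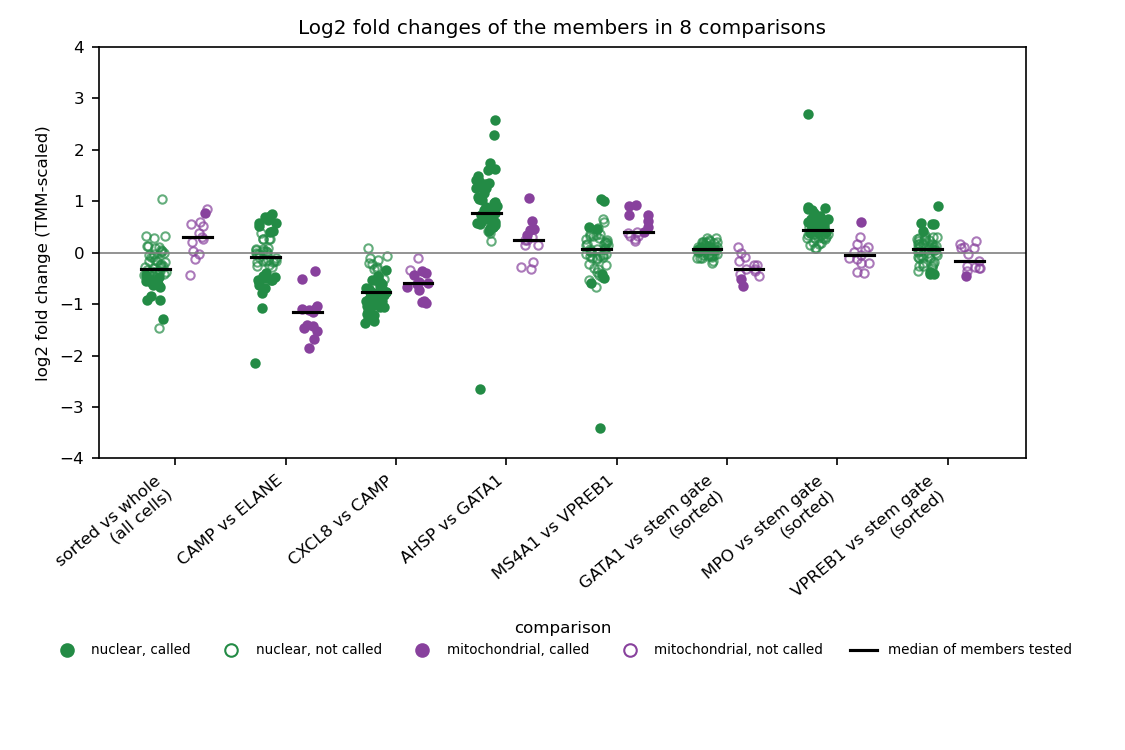
Log2 fold changes (TMM-scaled, edgeR) of the members tested in the 8 comparisons, 1 point per gene, filled where the adjusted p is under 0.05, with the median of the points drawn as a bar. COX6A2 is left out because its UMIs were at 0 in several gates. All 13 mitochondrial members are filled and below 0 from ELANE to CAMP, and most nuclear members are filled and above 0 from GATA1 to AHSP.

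Over all cells, sorted against whole marrow, 16 of 53 nuclear members were lower and none higher with TMM, where 17.5% of all 12593 genes tested were lower and 15.7% higher. Without adjustment 22 were lower and 1 higher, where 5687 of the 12593 genes had an unadjusted p under 0.05 by edgeR in either direction. DESeq2 called 18 members lower and none higher. This comparison mixes cell types, since AHSP-gate and CAMP-gate cells were rare after sorting: the sorted libraries held 1 and 0 cells in the AHSP gate and 3 and 8 in the CAMP gate. Under all 3 scalings ATP5IF1, NDUFS3, NDUFB2, NDUFS8 and COX6A2 were lower, where 13.2% of all genes were. COX6A2 was near the floor within the gates: with 1 gate per cell it had at most 8 UMIs in any gate and library. In the gates of the sorted libraries it had at most 1 UMI. ATP5IF1 had 999, 1296 and 1015 CPM in whole marrow against 578 and 505 in sorted cells, without overlap, and was lower by -1.30 ± 0.16 (adjusted p = 0.00295 by edgeR). Of the mitochondrial members MT-ND3, a core subunit of complex I, was higher by 0.76 ± 0.21, at 621, 863 and 847 CPM against 1868 and 1318, and was so under all 3 scalings, where 14.1% of all genes were higher. With the dog as a block 4 mitochondrial members were higher, and with total UMIs 6 were, where 26.3% of all genes were higher. With that scaling the median of all genes moved from 0.05 to 0.32 and the share of higher calls from 47.2% to 66.6%. The nuclear count was 1 when either sorted library was left out, 9 without whole marrow 2 and 5 without whole marrow 3. No mitochondrial member was called higher when either sorted library, whole marrow 2 or whole marrow 3 was left out, or with no mitochondrial limit on barcodes.

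Complex II and the tissue-restricted isoforms were followed by level. SDHB was highest in the VCAN gate, at 221, 190 and 190 CPM, and lowest in the ELANE gate, at 51.7, 57.0 and 55.1, and in the CAMP gate, at 48.9, 55.5 and 60.4, and the last 2 overlapped. SDHC ran alike, with 124, 125 and 110 CPM in the VCAN gate and 23.0, 20.8 and 23.3 in the CAMP gate. SDHA, the flavoprotein, was counted low throughout and lowest in marrow 1 over all cells (4.43, 15.5 and 11.5 CPM). NDUFA4L2, a relative of a complex IV subunit known to respond to low oxygen, was at 0 UMIs in every library. COX4I2, the subunit 4 isoform known from lung, was counted 3, 0 and 10 times in the VCAN gate and once elsewhere among the gates. COX7B2 was counted 4, 18 and 15 times in the CAMP gate, and ATP5MK never passed 2 UMIs in any gate and library.

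Other genes of the mitochondrial pathways were counted from 8 lists with TMM. Of 60 mitochondrial ribosomal proteins, which translate the 13 mitochondrial messages, 2 rose and 36 fell from ELANE to CAMP (MRPL37 by -1.86 and MRPL15 by -1.45), 42 fell from CAMP to CXCL8, 38 rose from GATA1 to AHSP (MRPS31 by 2.18) and 17 rose from the stem-like to the MPO gate. Over all cells 5 of 61 were higher and 4 lower. Of 41 assembly factors, 5 rose and 18 fell from ELANE to CAMP, 2 rose and 19 fell from CAMP to CXCL8, 19 rose and 2 fell from GATA1 to AHSP (COX17, a copper carrier for complex IV, by 1.72), and 10 rose from the stem-like to the MPO gate. Of 14 genes that copy or transcribe mitochondrial DNA or handle its RNA, 1 rose and 8 fell from ELANE to CAMP, among them LRPPRC, which stabilises mitochondrial messages, by -1.79 ± 0.16, and 5 were higher in sorted cells over all cells. From GATA1 to AHSP 3 of these 14 rose and 1 fell, TFAM, which packages mitochondrial DNA, by 1.11. The shares of all genes given above for each step apply to these counts too. With TMM 26.5% of all genes rose and 20.6% fell from ELANE to CAMP, and 19% rose and 22.5% fell from CAMP to CXCL8. From GATA1 to AHSP 26.5% rose and 16.8% fell, and from the stem-like to the MPO gate 9.73% rose and 13.4% fell. Over all cells 15.7% were higher and 17.5% lower in sorted cells. Neither these lists nor those of the next paragraph were counted under the other scalings. For the nuclear members total UMIs cut the CXCL8 count from 40 to 15 and the AHSP count from 46 to 14.

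Of 18 genes of glycolysis, the route to ATP without oxygen, 10 rose and 3 fell from ELANE to CAMP, with the glucose transporter SLC2A3 at 5.35, while 3 rose and 9 fell from GATA1 to AHSP, 6 rose and 6 fell from CAMP to CXCL8, and 5 were higher and 9 lower in sorted cells over all cells. Of 14 citric acid cycle genes, 2 rose and 5 fell from ELANE to CAMP, 10 rose and 2 fell from GATA1 to AHSP, 5 rose from the stem-like to the MPO gate, and 4 were lower in sorted cells. Of 12 electron carriers outside the rule, 8 rose from GATA1 to AHSP with CYC1, the cytochrome c1 of complex III, at 2.06, 8 fell from CAMP to CXCL8, and 1 rose and 5 fell from ELANE to CAMP. Of 8 nuclear regulators of mitochondrial genes, 3 rose and 1 fell from ELANE to CAMP (PPRC1 by -1.84), and of 9 genes of mitochondrial clearance 3 rose and 1 fell there, with the autophagy receptor CALCOCO2 at 3.07. Over all genes 26.5% rose and 20.6% fell in that step, and lists of 8 or 9 genes are too short to be set apart from these shares. For the other lists, 19% of all genes rose and 22.5% fell from CAMP to CXCL8, and 26.5% rose and 16.8% fell from GATA1 to AHSP. From the stem-like to the MPO gate 9.73% rose, and over all cells 15.7% were higher and 17.5% lower in sorted cells.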

How the data were processed

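The deposited files hold raw UMI counts per gene and barcode, which the authors made with Cell Ranger (7.0.1 per the file headers, 7.1.0 per the submitters' processing notes) on CanFam3.1 per those notes; the annotation and the handling of intronic reads are not given in the sources used here. Each file was already limited to barcodes with at least 500 UMIs, and 4432 of the 20257 features had no symbol. The members, gates and lists were chosen with earlier results of these data known.

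A barcode needed 200 genes or more and no more than 20% of its UMIs from the mitochondrial genome. Doublets were not called or removed; 813 cells in gates of more than 1 lineage were left out of the tests, and an alternative left out barcodes above the 95th percentile of UMIs. In tests each cell counted once: in the latest gate of its lineage, and in the SULT1B1+TFPI gate only if in no other. UMIs were summed per library and gate (at least 20 cells) and tested with edgeR 4.0.16 (quasi-likelihood, TMM, filterByExpr, limma 3.58.1, R 4.3.3), with the library as a block between gates and no block over all cells; DESeq2 1.42.0 was an alternative. The 7 gate comparisons share 1 fit over all sums. Calls have a Benjamini-Hochberg adjusted p under 0.05 over all genes tested. CPM uses all UMIs of a sum and no TMM factor. Fold changes are log2 of sums, with standard errors computed here.

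Genes were named by rule: the mitochondrial members, the 3 most counted nuclear members of each complex, the SDH genes and the isoforms, up to 5 called members by size and direction in each comparison, and up to 2 called genes per pathway list; some genes that the rule names are not reported here. NDUFS7, NDUFV1, COX7B2, ATP5MK and the members that set whole marrow 1 apart or were called under 3 scalings were named after their values were seen. The total-UMI scaling, the count over 3 scalings and the CXCL8 minimum of 0.2% were also chosen then. The 8 pathway lists were mitochondrial ribosomal proteins, assembly factors, mitochondrial DNA transcription and copying, nuclear regulators, electron carriers outside the rule, the citric acid cycle, glycolysis and mitochondrial clearance.

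The protocol and library names pair sorted library 1 with whole marrow 2 and sorted library 2 with whole marrow 3, from the same dogs. Differences between these 2 dogs (log2 of CPM + 1) were taken as whole marrow 2 minus whole marrow 3 and as sorted library 1 minus sorted library 2. Over 5642 features the 2 differences correlated at r = 0.397, and over members at 0.278. The test was also run on simulated counts, drawn for all sums from a common profile with set changes in some genes. These lacked the other library and gate differences of the real sums, so they cannot show how scaling affects the calls. Depth ranged from 46114431 to 70169186 UMIs per library.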

Additional observations from a re-analysis of the deposited data

How the results depend on the processing

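Of 307 values of 19 results under alternatives, 216 stayed within 1.5 times the value (counts) or 1 SD (shares), 89 did not and 2 turned direction. The difference in nuclear share, sorted minus whole marrow, was -0.0827 percentage points, 0.25 by the median over cells and 0.0509 without barcodes above the 95th percentile of UMIs; the mitochondrial difference of 2.44 points was 5.53 and the ratio's of 2.29 was 4.35 by that median. On total UMIs (added after the data were seen) nuclear members lower in sorted cells went from 16 to 5 and mitochondrial members higher from 1 to 6; nuclear lower from ELANE to CAMP from 14 to 25; from CAMP to CXCL8 nuclear lower from 40 to 15 and mitochondrial lower from 11 to 3; from GATA1 to AHSP nuclear higher from 46 to 14 and mitochondrial higher from 5 to 0; from VPREB1 to MS4A1 nuclear higher from 5 to 3 and mitochondrial higher from 7 to 2; in sorted cells mitochondrial lower in GATA1 from 2 to 1, and in VPREB1 nuclear higher from 5 to 18 and mitochondrial lower from 1 to 0. With RLE the CXCL8 mitochondrial count was 5, the AHSP mitochondrial count 1, the MS4A1 counts 13 and 11 and the GATA1 count 1. DESeq2 gave 5, 1, 14 and 11 for the first 4 of these and 9 nuclear higher in VPREB1. Without the low-count filter the CXCL8 mitochondrial count was 7, AHSP 2, GATA1 1 and VPREB1 0. With no replicate block the counts were 7 nuclear and 10 mitochondrial lower in CAMP, 30 and 6 lower in CXCL8, 38 and 2 higher in AHSP, 3 and 4 higher in MS4A1, 0 mitochondrial lower in GATA1, 5 nuclear and 0 mitochondrial higher in MPO, and 0 nuclear higher and 0 mitochondrial lower in VPREB1; with the dog as a replicate block over all cells they were 21 nuclear lower and 4 mitochondrial higher. With no mitochondrial limit the mitochondrial counts were 0 over all cells, 6 in CXCL8, 1 in AHSP, 1 in GATA1 and 0 in VPREB1, and with at least 500 genes 4 in CXCL8, 2 in AHSP and 1 in GATA1. Without barcodes above the 95th percentile they were 3 over all cells, 1 in AHSP and 1 in GATA1, with 30 nuclear higher in AHSP. With gate minimums doubled AHSP had 3 mitochondrial, MS4A1 0 of either set and GATA1 1. With overlapping gates CXCL8 had 3 mitochondrial lower, AHSP 0 of either set, MS4A1 10 nuclear, GATA1 1 nuclear higher, and VPREB1 3 nuclear higher and 0 mitochondrial lower. Leaving the mitochondrial members out gave 8 nuclear higher in MS4A1. Leaving out each library gave, for nuclear and mitochondrial counts, 1 to 18 and 0 to 1 over all cells, 10 to 18 and 12 to 13 in CAMP, 36 to 40 and 8 to 11 in CXCL8, 38 to 46 and 1 to 4 in AHSP, 3 to 6 and 6 to 8 in MS4A1, 0 to 0 and 0 to 3 in GATA1, 4 to 39 and 0 to 1 in MPO and 0 to 14 and 0 to 1 in VPREB1, and differences of -0.123 to -0.0333, 1.54 to 3.35 and 1.62 to 2.95 for the nuclear share, mitochondrial share and ratio. Of 1701 refits of 97 named gene results 1381 kept the call, 303 lost it and 17 turned direction. These were, from CAMP to CXCL8, ATP5IF1 (0.30), MT-ND4 (0.18), MT-ND6 (0.22) and MT-ATP6 (0.15) with overlapping gates and MT-ND4 (0.20), MT-CYB (0.16), MT-CO3 (0.0056) and MT-ATP6 (0.23) on total UMIs; from GATA1 to AHSP, MT-ND1 (-0.36), MT-ND6 (-0.18), ND4L (-0.34) and MT-CO3 (-0.46) on total UMIs and MT-CO3 with RLE (-0.017) and DESeq2 (-0.017); and from VPREB1 to MS4A1, MT-ATP6 on total UMIs (-0.088) and, with gate minimums doubled, MT-ATP6 (-0.37) and MT-CO2 (-0.21). The cause of these changes was not tested.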

Other observations

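The limit of 20% mitochondrial UMIs removed unlike shares of the gates. In whole marrow 3 it left out 16.6% of the barcodes that met the MPO gate, against 1.95% and 1.87% in whole marrows 1 and 2, and 7.31% of those that met the ELANE gate. In the CAMP gate it left out 0.137% to 0.424%. In the VPREB1 gate it left out 2.15% in sorted library 1 and 5.53% in sorted library 2, the sorted library with the higher mitochondrial share among the barcodes that were kept.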
